A study of Homo sapiens with 6 samples.

Results

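The aryl hydrocarbon receptor (AHR) targets CYP1A1 and CYP1B1 were followed together with AHR itself, its repressor AHRR and its target TIPARP in A431 cells. These 5 genes were taken by name, each through its brightest probe set, and 4 of them had a probe set among the 17687 named genes on the arrays, 1 each. No probe set was matched to AHRR, which is not analysed here. CYP1A1 and CYP1B1 were chosen by their measured levels in the 3 groups of these same arrays, so the values of the 4 genes are given as a description, with no test.

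A431 is a human epidermoid carcinoma line known for its abundant EGFR, the receptor for epidermal growth factor. Each of 3 groups held 2 arrays, and all cells had been grown with 10% fetal bovine serum and then starved for 24 h. Control cells received no treatment, EGF cells received EGF, the ligand of the receptor, at 100 ng/ml, and the last group received EGF at that dose together with gefitinib at 10 µM, which blocks the kinase of that receptor. All cells were harvested at 30 min per the labels, which do not say when gefitinib was given relative to EGF, and no group received gefitinib alone. The replicates are called biological, but nothing says that they were separate cultures, so a p-value here reflects the scatter of these arrays alone, and that scatter may be technical. All values are of 1 cell line.

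AHR is a transcription factor of the bHLH-PAS family that waits in the cytoplasm with the chaperones HSP90 and p23, enters the nucleus when it binds a ligand such as dioxin or a tryptophan metabolite, and there pairs with ARNT on the xenobiotic response element, whose core is GCGTG. CYP1A1 and CYP1B1 are cytochrome P450 enzymes that oxidise polycyclic hydrocarbons and oestrogens, and CYP1A1 also breaks down AHR ligands. TIPARP, an ADP-ribosyltransferase, and AHRR, which competes for ARNT, are induced by AHR and restrain it. In keratinocytes the pathway takes part in the response of skin to pollutants and in barrier formation.

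The promoters of both targets below are shown with the letters of that core, GCGTG or their reverse complement CACGC, in capitals wherever they stand. They are the 250 bases before the annotated start, 5′ to 3′ on the strand of the gene, from RefSeq on GRCh38.p14. CYP1A1 lies at chr15:74725529-74725778 on the minus strand and TIPARP, at its most upstream start of 3, at chr3:156674340-156674589 on the plus strand.
CYP1A1: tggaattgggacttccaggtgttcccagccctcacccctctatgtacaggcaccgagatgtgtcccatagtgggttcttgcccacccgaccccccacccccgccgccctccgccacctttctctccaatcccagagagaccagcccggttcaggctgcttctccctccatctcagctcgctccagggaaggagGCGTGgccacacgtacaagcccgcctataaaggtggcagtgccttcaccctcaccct
TIPARP: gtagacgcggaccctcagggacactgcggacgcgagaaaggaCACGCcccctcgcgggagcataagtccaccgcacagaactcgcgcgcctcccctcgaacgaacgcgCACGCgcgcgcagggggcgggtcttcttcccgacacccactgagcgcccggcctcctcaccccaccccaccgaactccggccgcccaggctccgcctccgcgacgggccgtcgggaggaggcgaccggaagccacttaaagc
CYP1A1 had 1 match in this window, which began 57 bases before the start, and TIPARP had 2, both on the opposite strand. The other TIPARP starts had 0 matches each, AHR had 0 in its window, and AHRR had 1 and 2 at its 2 starts. Of 35116 promoter windows of this length, 32.2% held at least 1 match on either strand; a match is a description of the letters alone. No promoter was matched to CYP1B1.

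The deposited values are log2 expression levels, so a difference of 1 is a 2-fold difference. A limit of background was taken on each array as the 95th percentile of its 612 negative-control probe sets, which lay between 7.14 and 7.65. The transcript probe sets had medians of 6.07 to 6.16, and arrays correlated at 0.991 to 0.994 within groups and at 0.973 to 0.987 between groups, across probe sets that are no independent replicates. The keratinocyte and A431 markers EGFR, KRT5, KRT14, DSG3, SFN and CDH1 were above the limit on all 6 arrays. Of 4 hepatocyte markers measured 0 were above it on any array, as were 0 of 4 leukocyte markers, and of 4 endothelial markers CDH5 alone was, on 1 control and 1 gefitinib array. LUM, of 5 fibroblast markers, was above it on all arrays, at 9.44 and 9.53 in control, 8.36 and 7.92 with EGF and 8.77 and 8.15 with EGF plus gefitinib. It was lower with EGF than in control (limma, adjusted p = 0.0194), as was DCN within background (adjusted p = 0.00923), and COL1A2 was above the limit on the 2 control arrays alone. COL1A1 and PDGFRB were at background on all arrays, and the part of these markers in the results was not tested. EGFR itself was at 14.42 and 14.38 in control, 14.44 and 14.44 with EGF, and 15.26 and 15.36 with EGF plus gefitinib.

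CYP1A1 was above background in starved cells, at background with EGF, and above the control level when gefitinib was present with EGF. Its values were 10.05 and 9.34 on the control arrays, 6.48 and 6.57 on the EGF arrays, and 12.45 and 12.66 on the arrays with EGF plus gefitinib. The 3 groups did not overlap, and both EGF arrays lay below the negative-control limit. The EGF level is therefore an upper bound, and CYP1A1 was at least 5.01-fold lower with EGF than in control. Between control and EGF plus gefitinib, where all 4 arrays were above the limit, the means were 9.70 ± 0.50 and 12.55 ± 0.15 (SD, n = 2), a difference of 2.85, or 7.22-fold. In RNA from whole cultures, fewer cells with the transcript and less of it per cell cannot be told apart.

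Control was the least even group for CYP1A1. Its SD of 0.50 exceeded that of 92.8% of transcript probe sets, whose median SD between control arrays was 0.149. With control 1 left out the excess over control was 3.21, and with control 2 left out it was 2.50. With a stricter limit, the 99th percentile of the negative controls (9.21 to 10.34), control 1 was above and control 2 below it. Both gefitinib arrays were above it.

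CYP1B1 was likewise at background with EGF, but with gefitinib present it lay close to control. It measured 11.63 and 11.54 in control, 5.39 and 5.64 with EGF, and 11.73 and 12.00 with EGF plus gefitinib. The EGF arrays again lay below the limit, so that CYP1B1 was at least 18.5-fold lower with EGF than in control. The gefitinib arrays were both above the control arrays, by a gap of 0.10 between the nearest pair. Their means were 11.86 ± 0.19 and 11.58 ± 0.06 (SD, n = 2), a difference of 0.28, or 1.22-fold.

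Set against each other as changes from their own control means, CYP1A1 stood at 2.75 and 2.96 with EGF plus gefitinib and CYP1B1 at 0.15 and 0.42. The change of CYP1A1 thus exceeded that of CYP1B1 by 2.60 on array 1 and 2.54 on array 2 of that group, with a mean of 2.57. The lowest and highest mean with an array left out were 2.26 and 2.88. Against EGF alone the fitted differences were 6.03 for CYP1A1 and 6.35 for CYP1B1, with lower bounds of 36.1-fold and 22.5-fold, because the EGF values of both genes were background. How low either gene was under EGF is not known from these arrays.

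**Figure D1:**
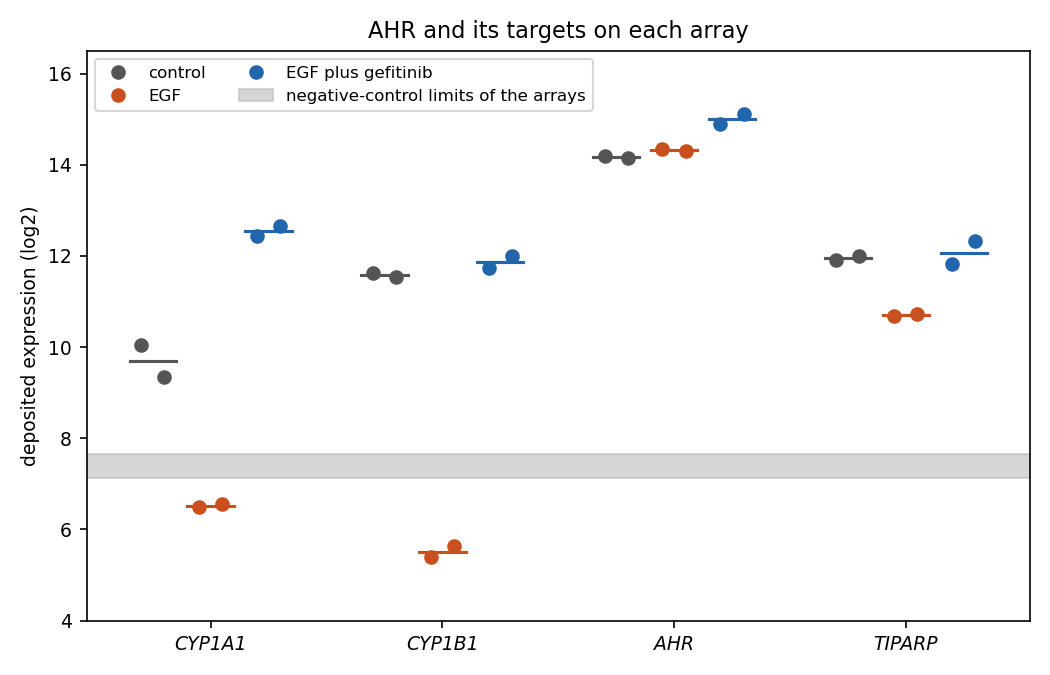
Deposited expression (log2, vertical axis) of CYP1A1, CYP1B1, AHR and TIPARP on the 6 arrays. Points are arrays, short lines are group means, and the grey band spans the negative-control limits of the arrays (7.14 to 7.65). With EGF both CYP genes sit below the band, while with EGF plus gefitinib CYP1A1 is above its control arrays by 2.85 and CYP1B1 by 0.28.

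Among the 17687 named genes, CYP1A1 ranked 2 from the highest for EGF plus gefitinib against control, after FNIP2 (3.94), a partner of folliculin, and before F2R (2.82), a thrombin receptor. CYP1B1 ranked 4168 in that comparison. For EGF plus gefitinib against EGF both were among the 2 highest fitted differences, with no order between them, since their EGF values were background. For EGF against control CYP1B1 had the lowest fitted difference and CYP1A1 the rank of 19 from the lowest, both limited by background. These ranks use the values by which the genes were picked and describe them only.

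AHR, the receptor, differed far less. It measured 14.20 and 14.16 in control, 14.34 and 14.31 with EGF, and 14.88 and 15.11 with EGF plus gefitinib. The order of the groups was control, EGF and then EGF plus gefitinib, with no overlap between them. EGF plus gefitinib exceeded control by 0.82, or 1.77-fold, and EGF exceeded control by 0.14, or 1.10-fold. The EGF difference was 0.041 after quantile normalization and 0.20 with array medians made equal, so its size lies within what the scaling of the arrays moves.

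TIPARP was lower with EGF than in control and overlapped control with EGF plus gefitinib. Its values were 11.92 and 11.99 in control, 10.69 and 10.72 with EGF, and 11.81 and 12.32 with EGF plus gefitinib. Unlike those of the CYP genes, the EGF values were above background, and the mean difference from control was -1.25, which is 2.38-fold lower. The 2 control values lay between the 2 gefitinib values, whose means differed by 0.11. With gefitinib array 2 left out this difference was -0.14 and with gefitinib array 1 left out it was 0.37, so control and EGF plus gefitinib did not differ beyond their spread. Of the targets, then, CYP1B1 and TIPARP were near control with gefitinib present, and CYP1A1 was above it.

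The genes next to these 4 in RefSeq gene order were read to see whether a whole stretch moved. They were taken by place, up to 2 on each side, and 15 had a probe set. Of these, limma called 2 higher and 2 lower with EGF than in control, beside 6.61% and 5.30% of all probe sets. With EGF plus gefitinib it called 4 neighbours higher and 1 lower than with EGF, beside 8.86% and 9.81%. Against control it called 1 higher and 0 lower, beside 2.19% and 1.70%. CYP1A1 lies between EDC3, an mRNA decapping factor, and CYP1A2, its closest relative and the main P450 of this family in liver. EDC3 measured 10.90 in control, 11.00 with EGF and 11.43 with EGF plus gefitinib (means, n = 2). CYP1A2 lay below the limit on every array, at 4.91 and 4.48 in control, 4.90 and 4.85 with EGF, and 5.86 and 5.17 with EGF plus gefitinib, so no fold is given. RMDN2, next to CYP1B1, was also at background in all groups. For these neighbours ± is the standard error of the limma fit, not the SD. SNX13, a sorting nexin next to AHR, fell by 0.66 ± 0.17 with EGF (limma, adjusted p = 0.0486). It was higher by 0.68 ± 0.17 with gefitinib present (limma, adjusted p = 0.0317), with 0.02 between its means in control and with EGF plus gefitinib. SSR3, next to TIPARP, had a rise of 0.69 ± 0.17 with EGF (limma, adjusted p = 0.0434) and a fall of 0.84 ± 0.17 with gefitinib present (limma, adjusted p = 0.015). The other calls were CLK3 higher and AGR2 lower with EGF, HNRNPLL, LEKR1 and CCNL1 higher with gefitinib present than with EGF alone, and CCNL1 higher than control. Those of AGR2 and LEKR1 lay within background in both groups.

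The genes whose profile came closest to CYP1A1 were found by the root mean square difference over the 6 arrays, after each gene's control mean was taken off. NUPR1, a stress-induced chromatin protein, was nearest at 0.54. FBXO32, a ubiquitin ligase, followed at 0.89, then SLC7A11, the cystine transporter, at 0.95, TCP11L2 at 1.04 and IRS2, an insulin receptor substrate, at 1.05. NUPR1 measured 11.93 and 11.88 in control, 9.35 and 9.14 with EGF, and 14.80 and 13.89 with EGF plus gefitinib, all above background.

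For CYP1B1 the nearest was BCL6, a transcriptional repressor, at 0.72. TXNIP, a thioredoxin inhibitor, followed at 1.06, then MPPED2 at 1.09, PSCA, a cell surface antigen, at 1.28 and BCAS1 at 1.31. BCL6 measured 12.60 and 12.71 in control, 7.83 and 7.53 with EGF, and 13.12 and 12.43 with EGF plus gefitinib. The nearest sets shared no gene, and the distance between CYP1A1 and CYP1B1 was 2.24, which placed CYP1B1 at 2144 in the order for CYP1A1 and CYP1A1 at 48 in that for CYP1B1. These distances include the EGF arrays, on which both genes were at background, so the exact distances and places rest in part on background values. When likeness was measured by Pearson correlation over the 6 arrays among 796 genes with a range of at least 2, a measure that ignores size, 1 of the 5 nearest to CYP1A1 stayed (IRS2, r = 0.996), and 0 of those nearest to CYP1B1.

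**Figure D2:**
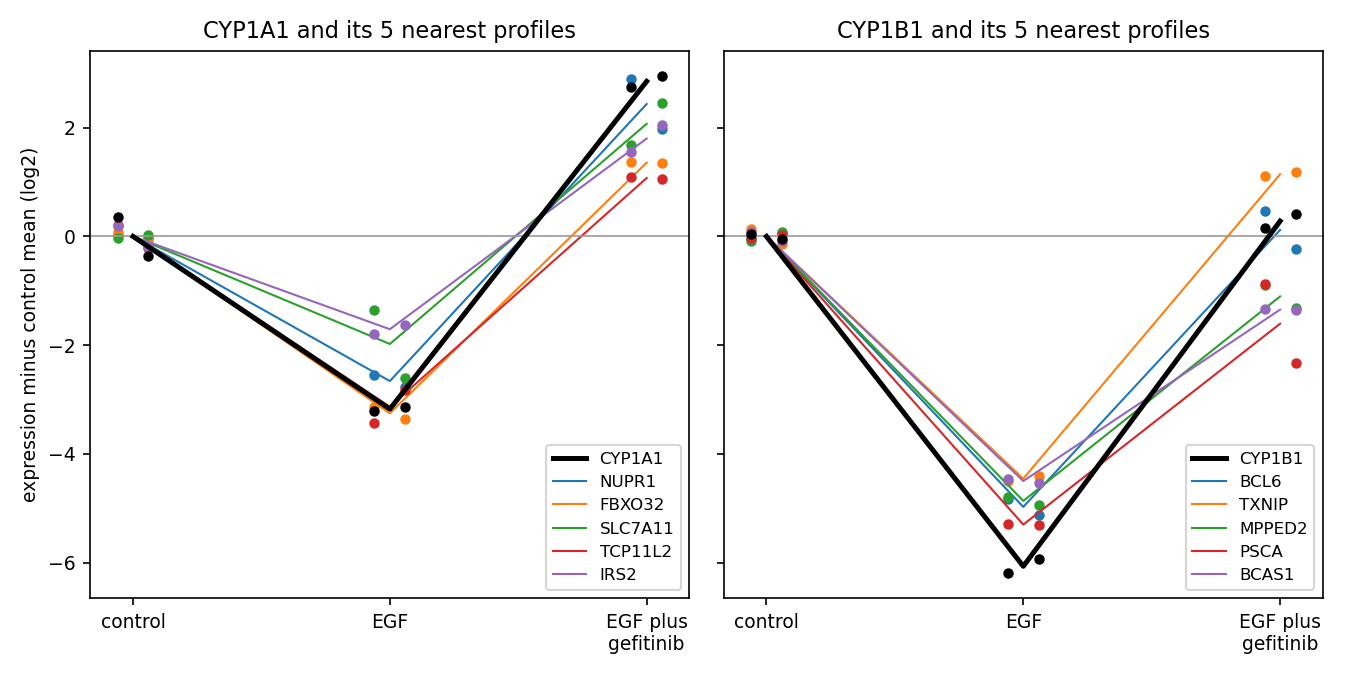
Expression minus the control mean (log2, vertical axis) in the 3 groups for CYP1A1 (left) and CYP1B1 (right), each in black with its 5 nearest profiles. Lines join group means and points are arrays. The genes were picked for their likeness, so their shared shape is given by the choice. NUPR1 lies nearest to CYP1A1 at 0.54 and BCL6 nearest to CYP1B1 at 0.72.

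The rest of the pathway was read from 7 lists, of AHR partners, other AHR-induced genes, kynurenine enzymes, bHLH-PAS factors, P450 partners, product-handling enzymes and other P450 genes. They held 117 genes, of which 104 had a probe set and 57 were at or below the limit on all 6 arrays. On any 1 array, 38.4% to 42.1% of all transcript probe sets were above it, a share per array that is not the same measure as a count over all 6. Each of the 104 genes was tested with limma over all 21448 transcript probe sets and called at a Benjamini-Hochberg adjusted p under 0.05. The lists were chosen with earlier results of these data known. A call is therefore no independent test of the pathway, nor is a share of calls above that of all probe sets. Differences below are log2 ± the standard error of that fit, with 2 arrays per group.

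With EGF, limma called 13 of the 104 genes higher and 15 lower than control, 12.5% and 14.4%, beside 6.61% and 5.30% of all probe sets, or 11.9% in either direction. The median difference of the listed genes was -0.06 and that of all probe sets -0.03. With control 1, control 2, EGF 1 or EGF 2 left out, 4 were higher each time, and 10, 7, 8 and 6 were lower.

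Of 8 measured partners of AHR, 3 fell with EGF and 0 rose, beside 5.30% and 6.61% of all probe sets. Of the 8, 0 were at or below the limit on all arrays, unlike many probe sets in those shares. ARNT, the DNA-binding partner, measured 11.43 and 11.66 in control, 10.43 and 10.20 with EGF, and 11.69 and 11.70 with EGF plus gefitinib. It fell by 1.23 ± 0.19 (limma, adjusted p = 0.00831), a 2.35-fold decrease, and the call was lost without control 2 or EGF 2, when the highest adjusted p was 0.0644. The coactivator NCOA2 fell by 1.38 ± 0.18 (limma, adjusted p = 0.00512) and was called without each array in turn. CUL4B, a ubiquitin ligase scaffold that AHR can join, fell by 0.88 ± 0.17 (limma, adjusted p = 0.0192), a call lost without any 1 of the 4 arrays. The chaperones HSP90AA1 and HSP90AB1 and the p23 gene PTGES3 were not called. The median over the 8 genes was -0.44.

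Among 16 measured genes of the list of other AHR-induced genes, 4 fell with EGF and 3 rose, beside 5.30% and 6.61% of all probe sets. ALDH3A1, an aldehyde dehydrogenase of the classical AHR battery, measured 12.20 and 12.29 in control, 11.04 and 10.92 with EGF, and 12.03 and 12.08 with EGF plus gefitinib. Its fall of 1.27 ± 0.17 (limma, adjusted p = 0.00547) was close in size to that described for TIPARP. NFE2L2, the antioxidant regulator NRF2, fell by 1.38 ± 0.19, the guanine exchange factor VAV3 by 1.64 ± 0.18 and the Notch effector HES1 by 1.68 ± 0.25 (limma, adjusted p of 0.00578, 0.00291 and 0.00818). The call of HES1 was lost without control 2 or EGF 2. NQO1, a quinone reductase and another classical target, measured 13.69 and 13.65 in control and 13.29 and 13.15 with EGF, a difference of -0.46 ± 0.17 that was not called (limma, adjusted p = 0.148).

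Of the members of that list that rose, EREG, an EGF family ligand, was at least 3.73-fold higher, IL1B, a cytokine, rose by 2.39 ± 0.29 (limma, adjusted p = 0.00368), and STC2, a secreted glycoprotein, rose by 0.86 ± 0.18 (limma, adjusted p = 0.0253). The call of STC2 was lost without any 1 of the 4 arrays, with an adjusted p of up to 0.137. The median over the list was -0.11.

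With gefitinib present beside EGF, ARNT, CUL4B, the coactivators NCOA2 and CREBBP and 7 genes of the AHR-induced list were higher than with EGF alone. HSP90AA1, PTGES3 and, of the AHR-induced list, IL1B and EREG were lower. limma called 15 of the 104 genes higher and 14 lower than with EGF alone, 14.4% and 13.5%, beside 8.86% and 9.81% of all probe sets, or 18.7% in either direction. This comparison shares the EGF arrays with the one before it, so the values of each are given side by side only. Without EGF 1 the counts were 9 higher and 8 lower, and without EGF 2 they were 10 and 9.

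Of the partners 4 rose and 2 fell, beside 8.86% and 9.81% of all probe sets. ARNT rose by 1.38 ± 0.19 (limma, adjusted p = 0.0032), NCOA2 by 1.68 ± 0.18 (adjusted p = 0.00141), the acetyltransferase CREBBP by 1.47 ± 0.19 (adjusted p = 0.00262) and CUL4B by 1.85 ± 0.17 (adjusted p = 0.000848), each still called with any 1 array of the comparison left out. The HSP90 chaperone HSP90AA1 fell by 0.75 ± 0.18 (adjusted p = 0.0264) and PTGES3 by 0.94 ± 0.18 (adjusted p = 0.0108). The call of HSP90AA1 was lost without any 1 of the 4 arrays, and that of PTGES3 without EGF 1 (adjusted p = 0.0764). NCOA1, another coactivator, was not called (0.32 ± 0.24, adjusted p = 0.414).

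Of the AHR-induced list 7 genes rose and 2 fell, beside 8.86% and 9.81% of all probe sets. NFE2L2 measured 13.53 and 13.47 in control, 11.95 and 12.29 with EGF, and 13.99 and 13.91 with EGF plus gefitinib, a rise over EGF of 1.84 ± 0.19 (limma, adjusted p = 0.00121). STC2 rose by 1.28 ± 0.18 (adjusted p = 0.00396) and ALDH3A1 by 1.08 ± 0.17 (adjusted p = 0.00582). HES1 and VAV3 rose too, with calls lost without EGF 2 for HES1 (adjusted p = 0.0524) and without EGF 1 or gefitinib array 2 for VAV3 (adjusted p up to 0.0782). CYP2S1, a P450 that AHR induces, rose by 0.87 ± 0.17 (adjusted p = 0.0128), from 13.00 and 12.97 to 13.84 and 13.87, and SLC7A5, an amino acid transporter, by 0.73 ± 0.18 (adjusted p = 0.0285). Those last genes are named outside the fixed rule, after their values were seen. The call of CYP2S1 held without gefitinib array 1 and was lost without each of the other 3 arrays, and that of SLC7A5 was lost without each of the 4. IL1B fell by 3.78 ± 0.29 (adjusted p = 0.000495) and EREG was at least 3.29-fold lower.

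Against control, few of these genes were called with EGF plus gefitinib, which does not show that few differed. limma called 3 of 104 higher and 4 lower, 2.88% and 3.85%, beside 2.19% and 1.70% of all probe sets, or 3.89% in either direction, and 11 were higher and 11 lower at an unadjusted p under 0.05. STC2 measured 7.37 and 7.53 in control, 8.30 and 8.33 with EGF, and 9.71 and 9.47 with EGF plus gefitinib. It exceeded control by 2.14 ± 0.18 (limma, adjusted p = 0.0069), or 4.41-fold. The difference of STC2 was 2.02 to 2.26 with an array left out, and its call held without gefitinib array 1 alone. CREBBP and CUL4B exceeded control by 1.08 ± 0.19 and 0.97 ± 0.17 (adjusted p of 0.0316 and 0.0325). Both calls were lost without any 1 of the 4 arrays, with differences of 0.95 to 1.21 and 0.93 to 1.01. Lower than control were IL1B, CYB5A, CYP24A1 and CYP4F11, the last of these by 1.16 ± 0.18 (adjusted p = 0.0238), with 1 of its 2 gefitinib arrays above background. CYP24A1 lay within background in both groups. The call of CYP4F11 was lost without any 1 of the 4 arrays, and those of IL1B, CYB5A and CYP24A1 held without gefitinib array 1 alone.

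ALDH3A1, NQO1 and ARNT lay close to control in this comparison. ALDH3A1 differed by -0.19 ± 0.17 (limma, adjusted p = 0.589) and NQO1 by -0.19 ± 0.17 (adjusted p = 0.597). CYP2S1 exceeded control by 0.74 ± 0.17 (adjusted p = 0.0609) and NFE2L2 by 0.45 ± 0.19 (adjusted p = 0.235), neither of them called. ARNT differed by 0.15 ± 0.19 (adjusted p = 0.702). A p that misses the threshold does not show that levels were equal. Without either control array or without gefitinib array 2, 0 list genes were called higher and 0 lower by limma, while 8 to 9 higher and 9 to 11 lower passed an unadjusted p under 0.05.

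**Figure D3:**
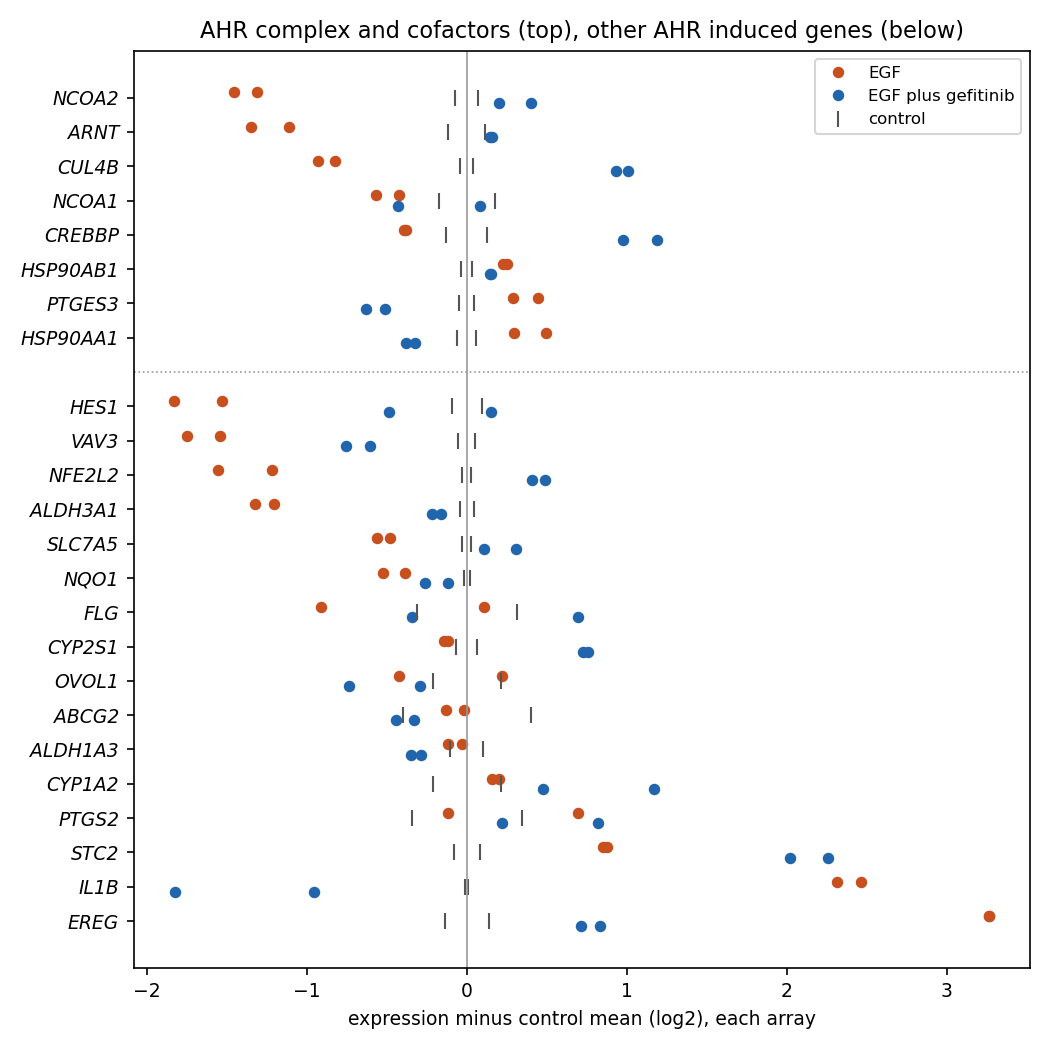
Expression minus the control mean (log2, horizontal axis) on each array for 8 measured AHR partners and cofactors (top) and 16 other AHR-induced genes (below), ordered by the EGF difference within each list. Points are EGF and EGF plus gefitinib arrays, and ticks are control arrays. ARNT and ALDH3A1 sit near control with EGF plus gefitinib, and STC2 stands 2.14 above it.

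Most of the P450 family, to which CYP1A1 and CYP1B1 belong, was not detected. The arrays held 50 named P450 genes, of which 42 were at or below background on all arrays. Of all transcript probe sets, 38.4% to 42.1% were above background on any 1 array, a share per array and not over all arrays. Besides CYP1A1 and CYP1B1, 6 P450 genes were above it on at least 1 array, namely CYP20A1, CYP2S1, CYP4B1, CYP4F11, CYP4V2 and CYP51A1. Among the 46 P450 genes other than CYP1A1, CYP1B1, CYP1A2 and CYP2S1, limma called 2 higher and 5 lower with EGF. These were 4.35% and 10.9%, beside 6.61% and 5.30% of all probe sets. CYP4F11, a fatty acid hydroxylase, rose by 1.01 ± 0.18 (limma, adjusted p = 0.0148) and CYP51A1, the lanosterol demethylase of cholesterol synthesis, by 0.83 ± 0.17 (adjusted p = 0.0244). Both calls were lost without any 1 of the 4 arrays.

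CYP4B1, which activates some xenobiotics, was also at background with EGF. It measured 7.44 and 7.60 in control, 5.47 and 5.46 with EGF, and 6.86 and 6.23 with EGF plus gefitinib. Its fall with EGF was at least 1.10-fold (limma, adjusted p = 0.00334), and with EGF plus gefitinib it was at background too, a difference from control that was not called (adjusted p = 0.0719). CYP4V2, another fatty acid hydroxylase, fell by 0.93 ± 0.21 (adjusted p = 0.0321), a call lost without each of the 4 arrays, with an adjusted p of up to 0.169. The remaining falls, of CYP24A1, CYP3A5 and CYP46A1, lay within background in both groups and carry no fold. With EGF plus gefitinib, the highest difference from control among P450 genes other than CYP1A1 was 0.82, that of CYP1A2 within background.

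**Figure D4:**
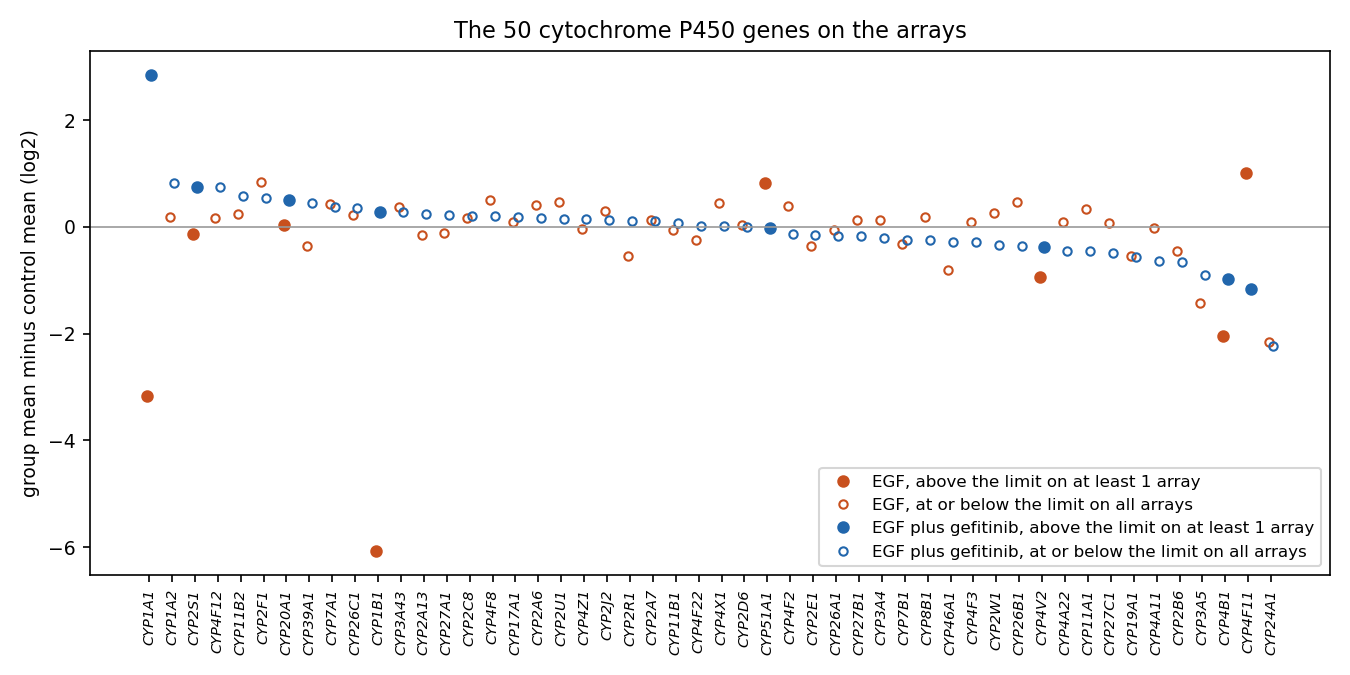
Group mean minus control mean (log2, vertical axis) for the 50 P450 genes with a probe set, ordered by the EGF plus gefitinib difference. Filled points are genes above the negative-control limit on at least 1 array and open points are genes at or below it on all 6. CYP1A1 stands at the left with 2.85 for EGF plus gefitinib, and the next gene, CYP1A2, is at 0.82 within background.

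Among enzymes that supply P450s with electrons and handle haem, the genes called were higher with EGF and lower with gefitinib present. POR and PGRMC1, also on this list, had no probe set and were not measured. Of 8 measured, 3 rose with EGF and 0 fell, and 3 fell with gefitinib present and 0 rose. Of all probe sets, 6.61% rose and 5.30% fell with EGF, and 9.81% fell and 8.86% rose with gefitinib present. The list medians were -0.09 with EGF and -0.25 with gefitinib present against EGF alone, so the list as a whole did not rise with EGF. Both comparisons use the same EGF arrays. CYB5A, the electron carrier cytochrome b5, measured 9.41 and 9.28 in control, 10.02 and 10.06 with EGF, and 7.89 and 7.65 with EGF plus gefitinib. Its fall against EGF alone was 2.27 ± 0.18 (limma, adjusted p = 0.000581), and it was below control by 1.57 ± 0.18 (adjusted p = 0.0121). That call against control was lost without control 1, control 2 or gefitinib array 2, with differences of -1.69 to -1.45 when an array was left out. ALAS1, the first enzyme of haem synthesis, rose by 0.85 ± 0.17 with EGF (adjusted p = 0.0228) and was lower by 1.04 ± 0.17 with gefitinib present (adjusted p = 0.00734). HMOX2, a haem oxygenase, rose by 1.02 ± 0.20 with EGF (adjusted p = 0.0197) and was lower by 1.08 ± 0.20 with gefitinib present (adjusted p = 0.0105), a call lost without EGF 1 or EGF 2. The rises with EGF of CYB5A, ALAS1 and HMOX2 were each lost without any 1 of the 4 arrays.

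Of 7 enzymes that act on P450 products, 2 fell with EGF and 0 rose, beside 5.30% and 6.61% of all probe sets. AKR1C1, an aldo-keto reductase that oxidises dihydrodiols of polycyclic hydrocarbons, measured 10.41 and 10.34 in control, 9.21 and 9.04 with EGF, and 10.53 and 10.53 with EGF plus gefitinib. It fell by 1.25 ± 0.17 (limma, adjusted p = 0.00596) and with gefitinib present was higher than with EGF alone by 1.40 ± 0.17 (adjusted p = 0.00224). GSTM1, a glutathione transferase, fell by 1.14 ± 0.20 (adjusted p = 0.0134), a call lost without any 1 of the 4 arrays. Without EGF 2 the EGF call of AKR1C1 was lost (adjusted p = 0.0525). With gefitinib present AKR1C1 differed from control by 0.16 ± 0.17 (adjusted p = 0.667). SULT1A1, a sulfotransferase, was the other gene called higher than with EGF alone, by at least 1.19-fold from background (adjusted p = 0.0474), a call lost without each of the 4 arrays.

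Other bHLH-PAS factors, the family to which AHR belongs, were called in both directions. Of 12 measured, 4 rose with EGF and 1 fell, beside 6.61% and 5.30% of all probe sets. BMAL2, a clock factor, rose by 2.26 ± 0.19 (limma, adjusted p = 0.0012), from 10.94 and 10.76 to 13.13 and 13.10, and stood at 10.37 and 10.66 with EGF plus gefitinib. HIF1A, the hypoxia factor, rose by 1.16 ± 0.17 (adjusted p = 0.00818) and EPAS1, its close relative, fell by 1.14 ± 0.18 (adjusted p = 0.00968). NPAS2 and CLOCK rose by 0.77 ± 0.19 and 0.78 ± 0.20 (adjusted p of 0.0404 and 0.0461). Of these calls only that of BMAL2 held without each of the 4 arrays in turn, and that of EPAS1 held without control 1 alone. With gefitinib present 1 was higher than with EGF alone and 3 were lower, beside 8.86% and 9.81% of all probe sets. EPAS1 was higher by 1.06 ± 0.18 (adjusted p = 0.0076), and BMAL2, CLOCK and NPAS2 were lower by 2.60 ± 0.19, 1.21 ± 0.20 and 0.66 ± 0.19 (adjusted p of 0.000441, 0.00636 and 0.0497). The call of EPAS1 was lost without EGF 1 and that of NPAS2 without each of the 4 arrays. Against control limma called 0 of the 12, with 1 higher and 0 lower at an unadjusted p under 0.05.

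Of 7 kynurenine enzymes, which make AHR ligands from tryptophan, 5 were at background on all arrays. Of all transcript probe sets, 38.4% to 42.1% were above the limit on any 1 array, a share per array and not over all arrays. IDO1, which takes the first step, was the kynurenine enzyme that changed. It measured 5.07 and 5.48 in control, 8.16 and 9.43 with EGF, and 4.82 and 5.63 with EGF plus gefitinib, and was at least 2.83-fold higher with EGF (limma, adjusted p = 0.00449). Its level with gefitinib present was below that with EGF by at least 2.50-fold (adjusted p = 0.00237). Other kynurenine enzymes were not called in any comparison.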

How the data were processed

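The 6 arrays were mapped to groups by their titles. The log2 values were deposited by the authors, and Transcriptome Analysis Console is the tool in the submitters' processing notes. Version, background correction, summarization and any normalization by the authors are not given in the sources used. RNA was labelled with the WT PLUS kit per the labels' protocols. That the scale is log2 was judged by the range of the values, which were used unchanged. The 2903 control probe sets were left out, and the 21448 transcript probe sets were tested without a filter. The platform annotation named 17709 of them, and 3739 are unnamed here. The brightest probe set stood for a gene.

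Groups were compared in 1 fit with limma 3.58.1 in R 4.3.3 (lmFit, eBayes, 3 residual and 4.22 prior degrees of freedom), two-sided, with Benjamini-Hochberg adjustment over all transcript probe sets. The fit was tested on simulated data. A fold against a group at or below the negative-control limit on both arrays is a lower bound, taken from the mean of the limits. The number of arrays limits the precision.

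The genes and lists were chosen with earlier results of these data known. The rule for names took the 4 genes followed, CYP1A2, ARNT, NQO1 and EGFR, up to 4 called genes per list and comparison, any count of 5 or fewer in full, and the 5 nearest profiles. Alternatives were quantile normalization, equal medians, a filter on dim probe sets, a variance trend, fits of 2 groups, a replicate block and leaving out each array. Sequences are from RefSeq.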

Additional observations from a re-analysis of the deposited data

How the results depend on the processing

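The values of CYP1A1 and CYP1B1 moved by less than the spread between arrays under quantile normalization and equal medians. The AHR difference for EGF against control was 0.14 and became 0.041 after quantile normalization and 0.20 with equal medians, and that of TIPARP was -1.25 and became -1.33 and -1.19. Leaving out an array gave -3.53 to -2.82 for CYP1A1, -6.19 to -5.94 for CYP1B1, 0.12 to 0.17 for AHR and -1.28 to -1.22 for TIPARP with EGF against control. For EGF plus gefitinib against EGF the ranges were 5.92 to 6.13, 6.21 to 6.48, 0.56 to 0.79 and 1.11 to 1.62, and against control 2.50 to 3.21, 0.15 to 0.42, 0.70 to 0.94 and -0.14 to 0.37. Each of these genes had 1 probe set, so a mean over probe sets was not run.

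Of the list genes, limma called 13 higher and 15 lower for EGF against control, and 4 to 10 and 6 to 16 with an array left out. For EGF plus gefitinib against EGF it called 15 and 14, and 9 to 13 and 8 to 12. For EGF plus gefitinib against control it called 3 and 4, and 0 to 1 and 0 to 3, with 8 to 10 and 9 to 14 at an unadjusted p under 0.05. An array left out leaves a lone array in its group, which is assumed to vary like the others. In that last comparison 6 were higher with only probe sets above the limit, 8 higher and 10 lower with a variance trend, 1 and 1 with a fit of those 2 groups, and 1 and 2 with the replicate block. Deviations of same-numbered arrays correlated at -0.04 to 0.02 between groups, so no shared effect of the replicate number was seen. Whether the arrays were paired is not given in the labels. Over all probe sets the block took the calls from 2554 to 2040, from 4005 to 3489 and from 834 to 333 in the 3 comparisons, in the order above. The last count was 2610 with only probe sets above the limit, 2770 with a variance trend and 247 with a fit of the 2 groups. It was 0 without control 1, 8 without control 2 and 0 without gefitinib array 2 by limma, with 3280, 3427 and 3810 at an unadjusted p under 0.05. Background limits CYP1A1 and CYP1B1 in the EGF group.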
